A study of Mus musculus with 2 samples.

Results

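The 10 genes described here encode proteins of the basement membrane or bind it: the laminin chains Lama1, Lama5, Lamb1 and Lamc1, the collagen IV chains Col4a1 and Col4a2, the linkers Nid1 and Hspg2, the collagen-binding Sparc and the laminin receptor subunit Itga6. They were taken by symbol, as a set drawn up with earlier results of these data known, and were 10 of the 32286 features in both libraries. Basement membranes are thin sheets of extracellular matrix on which epithelia rest. Laminins are heterotrimers of an alpha, a beta and a gamma chain that polymerise at the cell surface, and a collagen IV network, usually made of alpha1 and alpha2 chains, is tied to them by nidogen and by perlecan. In the mouse blastocyst the primitive endoderm lays down the first such sheets, under which the epiblast later becomes an epithelium, and its parietal derivatives secrete laminin and collagen IV in bulk.

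Single-cell RNA sequencing (scRNA-seq) was performed on 2 libraries: embryonic stem cells in serum and LIF (S/LIF ESCs, 0 h) made up the first, and epiblast-like cells at 48 h (48h-EpiLCs) the second. Both held wild-type (WT) and Cnot8 knockout (KO) mouse cells of the ICR strain mixed before capture, the WT line with the tdTomato-expressing ROSA mT/mG transgene and the KO line without Cnot8, a deadenylase of the Ccr4-Not complex. The Cnot8 KO ESCs came from blastocysts of mice edited with CRISPR/Cas9 in exon 2 of Cnot8, and were grown from picked colonies. S/LIF ESCs were grown on mitomycin-treated embryonic fibroblasts as feeder cells. EpiLCs were grown with activin A and bFGF on dishes coated with Matrigel, itself a basement membrane extract of laminin, collagen IV, nidogen and perlecan, and the methods of the study start EpiLCs from ESCs in 2i/LIF. With 1 library per stage, replicate checks and tests were not possible, and stage, library, medium and substrate cannot be told apart.

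Of 13184 and 12427 barcodes, 11054 ESCs and 9400 48h-EpiLCs passed the limits of 1000 genes or more and 10% mitochondrial UMIs or fewer, with a median of 11883 and 15284 UMIs. The libraries shared 41 barcodes, of which 26 were kept in both. Cells were assigned to the WT line by at least 1 tdTomato UMI and 0 UMIs of the Y-linked Ddx3y, Eif2s3y, Kdm5d and Uty, and to the KO line by 0 tdTomato UMIs and at least 2 of those Y-linked UMIs. This gave 435 WT-assigned and 2978 KO-assigned ESCs, and 368 WT-assigned and 2977 KO-assigned 48h-EpiLCs, and 7641 and 6055 cells met neither rule. The sexes of the lines, and any other difference between them, cannot be told apart from the loss of Cnot8. Cnot8 itself stood at 43.1 UMIs per 1000000 (CPM) in WT-assigned and 72.1 CPM in KO-assigned ESCs. The corresponding 48h-EpiLC levels were 49.7 and 62.6 CPM, so it was higher in KO-assigned cells of both libraries. Such reads come from the 3′ end of the mRNA, outside the edited exon, so they check neither label, and the line of a cell is only what its tdTomato and Y-linked UMIs say.

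Primitive endoderm-like ESCs were cells with at least 3 UMIs of Gata6, Sox17 and Pdgfra together and at most 1 UMI of Col1a2, none of which is among the 10 genes. There were 254 such cells (2.30%). They are set against 10626 other ESCs with under 3 UMIs of Gata6, Sox17 and Pdgfra together and the same limit of at most 1 UMI of Col1a2. The label was checked against 12 primitive endoderm markers that the rule did not use, with no minimum level. All but Hnf4a, which rested on 2 UMIs, stood above the other ESCs with no overlap of intervals, among them the transcription factors Foxq1 (175 against 1.66 CPM) and Gata4 (55.6 against 0.976 CPM), the endocytic adaptor Dab2 (62.6 against 2.45 CPM) and the granule proteoglycan core Srgn (41.4 against 1.52 CPM). Of 7 visceral endoderm markers 4 were measured and 2 were past 1.5-fold higher, where 7.45% of all measured genes were. These were the receptor parts Cubn (36.5 against 1.46 CPM) and Amn (40 against 2.30 CPM). Both are also among the 12 primitive endoderm markers, and no marker of the visceral list alone was called higher. Afp (0 UMIs) and Ttr (1 UMI) were at or near 0. Of 7 parietal endoderm markers 4 were measured and 1 was past 1.5-fold higher, the activin antagonist Fst (20 against 8.15 CPM). Thbd (3 UMIs) and Tfpi2 (1 UMI) were near 0, and Fst stood at 392 CPM in the Col1a2-positive cells described next. A further 174 cells of the ESC library held at least 2 Col1a2 UMIs and 371 CPM of Col1a1 against 3.51 CPM in the other ESCs, and are called Col1a2-positive here. Of these, 13 also held at least 3 UMIs of Gata6, Sox17 and Pdgfra. The Col1a2-positive cells as a whole held the pluripotency factor Sox2 at 90.5 CPM against 253 CPM in the other ESCs. The 48h-EpiLC library held 2 primitive endoderm-like and 4 Col1a2-positive cells.

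Positions are those of GENCODE M21 on GRCm38, in which the genes lie apart from each other except for the collagen IV genes, a head-to-head pair. Lama1 spans chr17:67697259-67822647, Lama5 chr2:180176373-180225859, Lamb1 chr12:31265234-31329644 and Lamc1 chr1:153218922-153332786. Col4a1 spans chr8:11198423-11312826 on the minus strand and Col4a2 chr8:11312805-11449287 on the plus strand. Nid1 spans chr13:13437551-13512269, Hspg2 chr4:137468769-137570630, Sparc chr11:55394500-55423183 and Itga6 chr2:71745616-71858416. An antisense gene, Gm15418, overlaps the last 6081 bases of Col4a1, where the counted reads fall, and whether counting used the strand was not stated, so Col4a1 values may hold reads of that gene.

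The start sites of Col4a1 and Col4a2 are shown because the levels of both genes are read as a pair below. In the 30 plus-strand bases of chr8:11312801-11312830 (RefSeq start sites, GRCm38.p6), capitals mark the 22 bases from the start of Col4a2 to the start of Col4a1, which are transcribed in opposite directions.
Col4a2 and Col4a1 starts: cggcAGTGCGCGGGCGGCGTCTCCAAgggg

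The stretches before Lamb1 and Lama5 are shown because Lamb1 was 7.53-fold higher in primitive endoderm-like cells and Lama5 was within 1.5-fold. Each is taken from the 250 bases before the RefSeq start (GRCm38.p6), 5′ to 3′ on the strand of the gene, and ends where the GENCODE gene begins. Capitals mark the GC box (GGGCGG or CCGCCC) and the CCAAT box (CCAAT or ATTGG).
Lamb1, chr12:31265043-31265233, plus strand: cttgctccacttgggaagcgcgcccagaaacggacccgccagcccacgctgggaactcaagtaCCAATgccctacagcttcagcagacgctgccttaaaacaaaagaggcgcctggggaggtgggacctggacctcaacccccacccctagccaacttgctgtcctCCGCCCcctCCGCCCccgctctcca
Lama5, chr2:180225860-180226109, minus strand: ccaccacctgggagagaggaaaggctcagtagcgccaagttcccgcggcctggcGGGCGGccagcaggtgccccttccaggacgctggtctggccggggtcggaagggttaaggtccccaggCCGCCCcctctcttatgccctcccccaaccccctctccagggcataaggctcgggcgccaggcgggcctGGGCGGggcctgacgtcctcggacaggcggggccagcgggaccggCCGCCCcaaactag

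A promoter sequence was at hand for 7 of the 10 genes, which leaves out Lama1, Lamc1 and Itga6. The windows are set by the RefSeq start. That of Sparc, chr11:55420081-55420330, lies wholly inside the GENCODE gene given above, and those of Hspg2, Lamb1 and Nid1 reach into it in part. In the 250 bases before the start, a GC box was found in 5 of the 7, against 32.7% of 32851 such windows, and a CCAAT box in 4 of the 7, against 33.8%. The letters GATAA (or TTATC) were in 0 of the 7 windows against 22.6% of all windows, ACAAT (or ATTGT) in 0 of 7 against 27.7%, and TATAAA (or TTTATA) in 0 of 7 against 12.4%. These searches cover both strands and say only which letters are in these windows.

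Primitive endoderm-like ESCs held the chains of laminin-111 (Lama1, Lamb1 and Lamc1) and of collagen IV well above the other ESCs, while Lama5 and Itga6 stayed within 1.5-fold. Levels are given as CPM of the class with exact 95% Poisson intervals. A gene was called higher or lower when its log2 ratio of CPM + 1 passed 1.5-fold and the average of its levels in the 2 classes was at least 5 CPM. Of the 10 genes, 8 were called higher and 0 lower in primitive endoderm-like over other ESCs, where 7.45% of 9371 measured genes were called higher and 4.76% lower. The median log2 ratio was 1.26 over the 10 genes and 0.05 over all measured genes. With TMM scaling the higher share of all calls was 48.7% instead of 61.0%, and none of the 10 genes changed sides. Summed over the 10 genes, the level was 1346 CPM against 444.4 CPM. All values of a comparison were taken within the same library and at similar depth, with a median of 12053.5 UMIs in primitive endoderm-like and 11857.5 in other ESCs.

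**Figure D1:**
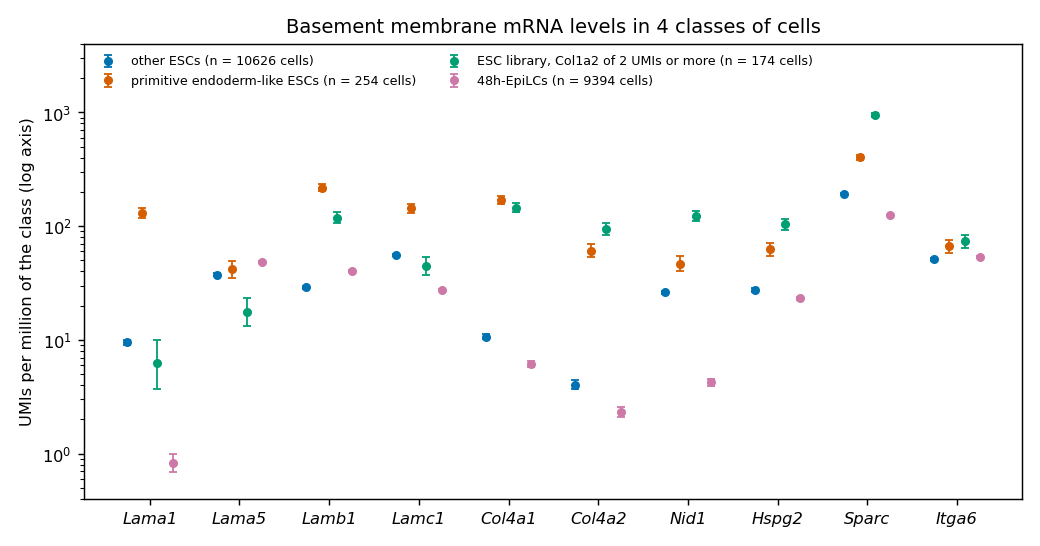
Level of each of the 10 genes (UMIs per 1000000 of the class, log axis) in other ESCs, primitive endoderm-like ESCs, Col1a2-positive cells of the ESC library and 48h-EpiLCs that are neither; bars are exact 95% Poisson intervals of the counts. Lama1 stands at 131 CPM in primitive endoderm-like cells and at or below 9.51 CPM in the others, whereas Lama5 stays between 17.8 and 48.6 CPM.

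The alpha chains parted. Lama1, the alpha chain of laminin-111 and the main one of early embryonic matrix, stood at 131 CPM (119 to 144) in primitive endoderm-like cells and 9.51 CPM (8.998 to 10.05) in other ESCs, 13.8-fold higher with an exact binomial interval of 12.3 to 15.3. Lama5, the alpha chain of laminin-511 on which pluripotent cells attach well, stood at 41.7 CPM (35.2 to 49.1) and 37.5 CPM (36.4 to 38.5), a ratio of 1.11 (0.937 to 1.31). The interval of Lama5 thus reached 1.31-fold at most, far from the fold of Lama1. Lama1 made up 75.8% (72.2 to 79.2) of the summed UMIs of both alpha chains in primitive endoderm-like cells and 20.2% (19.3 to 21.3) in other ESCs. After thinning every cell to 5000 UMIs, Lama1 was seen in 44.4% of primitive endoderm-like cells and 4.62% of the others, and Lama5 in 18.5% and 16.5%.

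The shared chains followed Lama1 to a smaller degree. Lamb1, the beta chain common to laminin-111 and laminin-511, stood at 218 CPM (202 to 234) against 28.9 CPM (28.0 to 29.9), 7.53-fold higher (6.95 to 8.14). Lamc1, the gamma chain of most laminins, stood at 144 CPM (132 to 157) against 55.6 CPM (54.4 to 56.9), 2.59-fold higher (2.36 to 2.84). The 4 laminin chains therefore spanned ratios from 1.11 to 13.8, and none of the intervals overlapped another.

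The collagen IV chains showed the highest ratios of the 10 genes. Col4a1 stood at 171 CPM (157 to 185) in primitive endoderm-like cells against 10.7 CPM (10.1 to 11.2), 16.02-fold higher (14.5 to 17.6), and Col4a2 at 61.1 CPM (53.1 to 69.9) against 4.05 CPM (3.71 to 4.40), 15.1-fold higher (12.8 to 17.7). Their intervals overlapped each other and, for Lama1, that of both. Col4a1 made up 73.7% (70.5 to 76.7) of the summed UMIs of the pair in primitive endoderm-like cells, 72.5% (70.5 to 74.5) in other ESCs and 72.7% (70.2 to 75.01) in 48h-EpiLCs other than the few set apart. It made up 60.5% (56.8 to 64.2) in Col1a2-positive cells, the only one of these 4 classes whose interval did not overlap the rest. This pair is the one whose start sites are printed above.

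The linkers and Sparc were higher by smaller factors. Nid1, or nidogen-1, which joins laminin to collagen IV, stood at 46.9 CPM (40.0 to 54.7) against 26.1 CPM (25.3 to 27.0), 1.80-fold higher (1.52 to 2.10). Hspg2, or perlecan, a heparan sulfate proteoglycan, stood at 62.8 CPM (54.8 to 71.8) against 27.5 CPM (26.6 to 28.4), 2.29-fold higher (1.99 to 2.62). Sparc, a secreted protein that binds collagen IV, stood at 403 CPM (382 to 425) against 194 CPM (191 to 196), 2.08-fold higher (1.97 to 2.20). Itga6, a laminin-binding integrin subunit and the only receptor among the 10, stood at 66.9 CPM (58.5 to 76.1) against 51.1 CPM (49.9 to 52.3), 1.31-fold higher (1.14 to 1.49) and not past 1.5-fold.

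The average levels of Lama1, Col4a1 and Lamb1 rose across bins of the UMIs that the rule itself uses. The share of cells with Lama1 also rose, from 10.3% at 0 UMIs to 91.1% at 12 or more. Whether single cells are graded or the bins mix 2 kinds of cells was not tested. In cells with 0, 1, 2, 3 to 5, 6 to 11 and 12 or more UMIs of Gata6, Sox17 and Pdgfra, Lama1 stood at 9.16, 11.4, 41.6, 58.7, 148 and 235 CPM. Col4a1 stood at 10.2, 14.8, 43.6, 100.2, 168 and 313 CPM in the same order, and Lamb1 at 28.3, 35.3, 71.0, 114, 241 and 372 CPM. Each of these genes was thus already above the cells with 0 UMIs in the 65 cells with 2. Lama5 stood at 37.3, 38.5, 45.6, 50.5, 39.0 and 30.1 CPM, and Nid1 at 25.9, 28.4, 40.5, 50.5, 49.0 and 35.9 CPM, and their intervals in the last bin overlapped those in the first. Just inside the threshold, the 33 cells with 3 UMIs held Lama1 at 28.8 CPM (14.9 to 50.3) and Col4a1 at 33.6 CPM (18.4 to 56.3), and just outside it the 65 cells with 2 UMIs held 41.6 CPM (29.8 to 56.4) and 43.6 CPM (31.5 to 58.7).

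**Figure D2:**
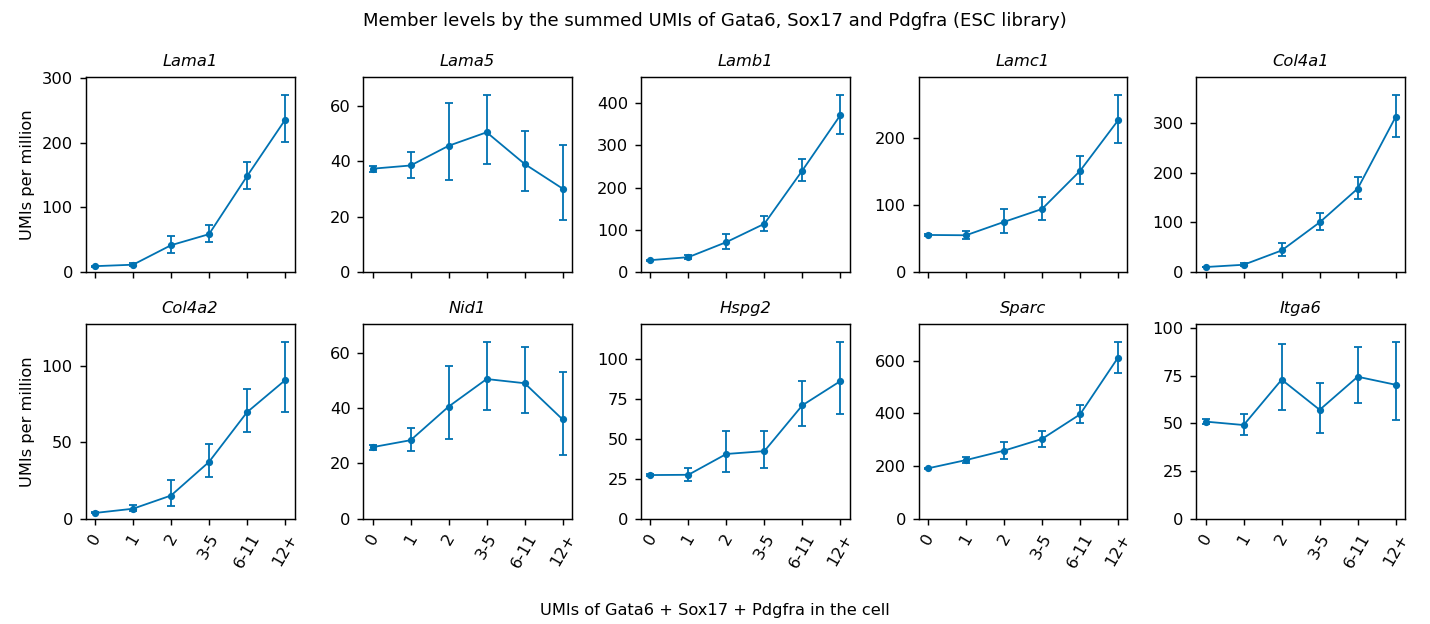
Level of each of the 10 genes (UMIs per 1000000, axes from 0) in ESCs grouped by their summed UMIs of Gata6, Sox17 and Pdgfra (0, 1, 2, 3 to 5, 6 to 11, 12 or more), Col1a2-positive cells left out; bars are exact 95% Poisson intervals. Lama1 goes from 9.16 to 235 CPM across the bins and Col4a1 from 10.2 to 313 CPM, while Lama5 ends at 30.1 CPM, below the 37.3 CPM of the first bin with overlapping intervals.

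At the level of single cells, the 10 genes together made up a median of 11.8 of every 10000 UMIs in primitive endoderm-like cells, with quartiles of 6.26 and 19.1, and 4.11 in other ESCs, with quartiles of 2.75 and 5.71. At 5000 UMIs a cell, the median was 6 UMIs of the 10 genes in 248 primitive endoderm-like cells and 2 UMIs in 10142 other ESCs, with 6 and 484 shallower cells left out. The primitive endoderm-like class was not uniform: 1.61% of its thinned cells held no UMI of the 10 genes and 11.3% held 15 or more, against 13.3% and 0.0986% of the others. At least 7 of the 10 genes were seen at that depth in 10.5% of primitive endoderm-like cells and 0.00986% of other ESCs. Of the 254 primitive endoderm-like cells, 52 were among the ESCs with the top 10% of doublet scores, and the values without those cells are among the alternatives given at the end.

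**Figure D3:**
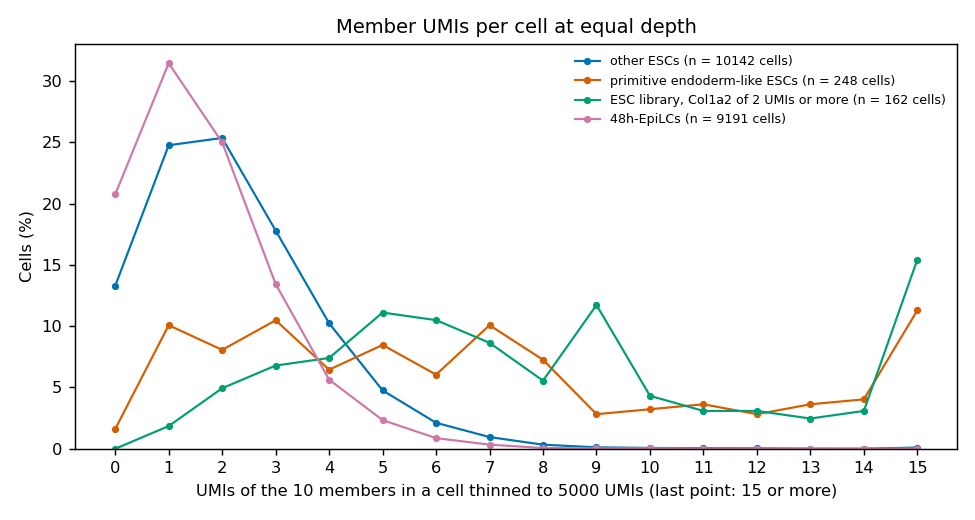
Share of cells (%) by the number of UMIs of the 10 genes in a cell thinned to 5000 UMIs, the last point holding 15 or more; lines join the points of a class, and n counts cells at or above that depth. Other ESCs and 48h-EpiLCs peak at 1 to 2 UMIs, whereas primitive endoderm-like and Col1a2-positive cells spread over the whole range, with 11.3% and 15.4% of cells in the last point.

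Within the class, the pairs that varied together most were among Lama1, Lamb1, Col4a1, Col4a2 and Sparc. Across the 248 thinned primitive endoderm-like cells, which share 1 library, Pearson's r of the 45 pairs had a median of 0.119, with the highest values for Lama1 with Lamb1 (0.434), Lama1 with Col4a1 (0.425), Lama1 with Sparc (0.363) and Lamb1 and Col4a2 each with Col4a1 (0.353 for both). The lowest was Lama5 with Itga6 (-0.127), and Lama1 with Lama5 gave -0.0551. Counts were sparse here too, with Lama5 seen in 18.5% and Sparc in 77.8% of these thinned cells. The part of sparse counts in these values was not tested. In the 10142 other ESCs the median was 0.0107 and the highest pair was Col4a1 with Col4a2 (0.0915), at counts so sparse that such values say little. The genes outside the set whose levels were most like the mean of the 10 across 10880 ESCs, of 13089 genes seen in at least 1% of cells, were Foxq1 (r = 0.374), Gata4 (0.340), Runx1 (0.332), Nostrin (0.298), Dab2 (0.286), Fbp2 (0.281), Serpinh1 (0.276), Dkk1 (0.266), Amot (0.258) and Flrt3 (0.255). In 9396 48h-EpiLCs the values were lower, and led by Cald1 (0.196), Ahnak (0.160), Tinagl1 (0.157), Tpm1 (0.153) and Anxa3 (0.152).

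Some genes that help to fold and modify collagen were higher in the same cells. Of 18 genes of collagen and laminin biosynthesis, 14 were measured. In primitive endoderm-like over other ESCs 6 were called higher, 0 lower and 8 neither, with a median log2 ratio of 0.44. The counts of this and the next lists are to be read against 7.45% of all measured genes called higher and 4.76% lower. Serpinh1, the collagen chaperone HSP47, stood at 188 against 19.9 CPM, the prolyl hydroxylase subunits P4ha1 at 80.2 against 18.7 CPM and P4ha2 at 16.2 against 5.78 CPM, and the lysyl hydroxylase Plod2 at 89.2 against 30.04 CPM. Other basement membrane components were mostly past neither fold: of 27 genes 11 were measured, 1 was higher (the peroxidase Pxdn, which crosslinks collagen IV, 9.85 against 5.39 CPM) and 1 lower (Col18a1, 72.7 against 123 CPM). The other collagen IV chains, Col4a3, Col4a4, Col4a5 and Col4a6, each had 0 UMIs in primitive endoderm-like cells, which allows a level of up to 0.869 CPM (3 counts of the class total). Of 12 measured matrix receptors, 2 were higher, the syndecan Sdc4 (221 against 74.5 CPM) and the integrin subunit Itga3 (43.2 against 24.3 CPM). Of 6 measured proteases and inhibitors, 3 were higher, with Mmp9 at 13.3 against 4.79 CPM, Htra1 at 42.0 against 23.2 CPM and Mmp14 at 33.6 against 18.8 CPM, and 1 was lower, Timp2 at 4.05 against 11.6 CPM.

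Col1a2-positive cells carried many of the same mRNAs in other proportions. Sparc stood at 944 CPM (909 to 980) in them, Col4a1 at 146 CPM (132 to 161), Col4a2 at 95.1 CPM (84.1 to 107), Nid1 at 123 CPM (110 to 136), Lamb1 at 119 CPM (106 to 132) and Hspg2 at 104 CPM (92.6 to 117), all above the other ESCs with no overlap of intervals. Itga6, at 73.5 CPM (63.9 to 84.1), was also above the other ESCs with no overlap, but not past 1.5-fold. Lama1, at 6.27 CPM (3.71 to 9.91), had an interval that overlapped theirs. Lamc1, at 44.9 CPM (37.5 to 53.4), and Lama5, at 17.8 CPM (13.2 to 23.3), were lower with no overlap, and only Lama5 was past 1.5-fold. Primitive endoderm-like over Col1a2-positive cells, Lama1 was 20.9-fold higher (13.1 to 35.6), Lamc1 3.21-fold (2.64 to 3.93) and Lama5 2.35-fold (1.70 to 3.30), while Nid1 was 2.62-fold lower (2.17 to 3.18) and Sparc 2.34-fold lower (2.19 to 2.50). Col4a1 differed between these classes by 1.17-fold (1.03 to 1.33), and the ratio of Itga6, 0.911 (0.752 to 1.103), included 1. RNA free in the suspension reaches every droplet, so the levels of markers in the other ESCs are given beside them: Col1a1 stood there at 0.944%, Col3a1 at 1.08%, Postn at 1.27%, Dcn at 3.43% and Lum at 3.72% of the level in Col1a2-positive cells. Among the genes of the set, Col4a2 stood at 4.26% and Col4a1 at 7.31%, and Sparc at 20.5%, Nid1 at 21.3%, Lamb1 at 24.4% and Hspg2 at 26.4%. Against primitive endoderm-like cells, Gata4 stood at 1.76%, Foxa2 at 2.31%, Srgn at 3.68%, Dab2 at 3.91%, Cubn at 4.01% and Sox7 at 5.04%, and Lama1 at 7.27%, Col4a1 at 6.24% and Col4a2 at 6.62%. The last 3 values lie close to the highest marker value, and the part of free RNA in the low levels of Lama1 and collagen IV in other ESCs was not tested.

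The stage comparison asked which of the genes differed between S/LIF ESCs and 48h-EpiLCs within each line. In both lines Lama1, Lamc1, Col4a1, Nid1 and Sparc were lower in 48h-EpiLCs, while Lama5, Lamb1, Hspg2 and Itga6 stayed within 1.5-fold. In WT-assigned cells 0 of the 9 measured genes were called higher and 5 lower, where 13.3% of 9242 measured genes were higher and 11.4% lower. In KO-assigned cells 0 of 10 were higher and 6 lower, against 8.55% and 10.1% of 9478 genes. Over all kept cells 0 of 9 were higher and 5 lower, against 8.63% and 9.43% of 9410 genes. The median log2 ratios were -0.96, -0.81 and -0.77, against 0.03, -0.02 and -0.002 over all measured genes. The lines were mixed within each library, so their ratios share the library and the stage.

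**Figure D4:**
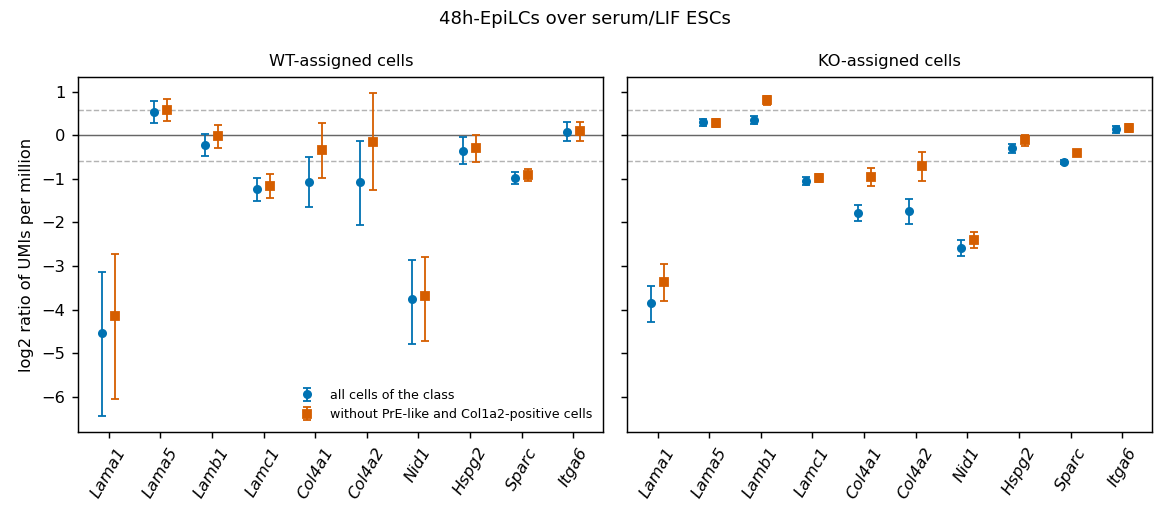
Log2 ratio of 48h-EpiLCs over S/LIF ESCs for the 10 genes in WT-assigned (left) and KO-assigned (right) cells, for all cells of the class (circles) and without primitive endoderm-like and Col1a2-positive cells (squares); bars are exact 95% intervals of the counts and dashed lines mark 1.5-fold. Lama1 and Nid1 lie below -2 in both lines, and the collagen IV chains move towards 0 without the rare cells.

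Lama1 showed the largest ratio between the stages. It stood at 14.9 CPM (12.1 to 18.3) in WT-assigned and 12.9 CPM (11.9 to 14.1) in KO-assigned ESCs, and at 0.643 CPM (0.175 to 1.65) and 0.894 CPM (0.670 to 1.17) in 48h-EpiLCs. These are 4 UMIs in the WT-assigned and 53 UMIs in the KO-assigned 48h-EpiLCs, and a decrease of 23.2-fold (8.78 to 87.1) and 14.5-fold (10.9 to 19.6). Lama5 was at 35.1 CPM (30.6 to 40.1) and 39.8 CPM (37.9 to 41.7) in ESCs and at 51.0 CPM (45.5 to 56.9) and 48.9 CPM (47.1 to 50.7) in 48h-EpiLCs, a ratio of 1.45 (1.22 to 1.73) in the WT and 1.23 (1.16 to 1.30) in the KO line. The share of Lama1 in the UMIs of both alpha chains went from 29.9% (24.8 to 35.3) to 1.25% (0.34 to 3.16) in WT-assigned cells and from 24.5% (22.8 to 26.4) to 1.80% (1.35 to 2.34) in KO-assigned cells.

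The beta and gamma chains parted between the stages. Lamc1 stood at 66.0 CPM (59.7 to 72.7) and 56.7 CPM (54.5 to 58.9) in WT- and KO-assigned ESCs and at 28.0 CPM (24.0 to 32.5) and 27.5 CPM (26.2 to 28.9) in 48h-EpiLCs, 2.36-fold (1.97 to 2.83) and 2.06-fold (1.93 to 2.19) lower. Lamb1 stood at 45.8 CPM (40.6 to 51.5) and 33.4 CPM (31.7 to 35.1) in ESCs and at 39.1 CPM (34.3 to 44.3) and 42.3 CPM (40.7 to 44.0) in 48h-EpiLCs. Its log2 ratio was -0.23 (-0.48 to 0.02) in WT-assigned and 0.34 (0.25 to 0.44) in KO-assigned cells, of which only the second excluded 0. With the tighter line rule the WT value of Lamb1, on log2 of CPM + 1, went from -0.22 to -1.97. That of Lamc1 went from -1.21 to -0.54, no longer past 1.5-fold. This rule left 33 and 24 WT-assigned cells in the ESC and 48h-EpiLC libraries.

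Collagen IV and nidogen-1 were lower in 48h-EpiLCs. Col4a1 stood at 13.5 CPM (10.7 to 16.7) and 19.2 CPM (18.0 to 20.6) in WT- and KO-assigned ESCs and at 6.43 CPM (4.59 to 8.76) and 5.57 CPM (4.98 to 6.20) in 48h-EpiLCs, 2.10-fold (1.42 to 3.14) and 3.46-fold (3.04 to 3.94) lower. Col4a2, which reached the minimum of 5 CPM only in the KO comparison, went from 5.04 and 7.98 CPM to 2.41 and 2.38 CPM. Nid1 went from 23.7 CPM (20.0 to 27.9) to 1.77 CPM (0.883 to 3.16) in WT-assigned and from 32.8 CPM (31.1 to 34.5) to 5.46 CPM (4.89 to 6.09) in KO-assigned cells, 13.4-fold (7.28 to 27.5) and 5.99-fold (5.31 to 6.78) lower.

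Sparc, Hspg2 and Itga6 varied less. Sparc went from 209 CPM (198 to 221) to 106 CPM (98.0 to 114) in the WT line and from 203 CPM (199 to 208) to 134 CPM (131 to 137) in the KO line, 1.97-fold (1.79 to 2.17) and 1.52-fold (1.48 to 1.57) lower. The KO value lay at the threshold: as log2 of CPM + 1 it was -0.60, and -0.56 with TMM scaling, which is not past 1.5-fold. Hspg2 went from 32.7 to 25.6 CPM and from 29.0 to 23.5 CPM, and Itga6 from 58.7 to 62.2 CPM and from 47.0 to 51.7 CPM, all within 1.5-fold.

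Nearly all cells of the 2 rare classes were in the ESC library, and part of the stage ratios moved with them. Primitive endoderm-like cells were 2.07% (0.950 to 3.89) of WT-assigned and 3.32% (2.71 to 4.03) of KO-assigned ESCs, and Col1a2-positive cells 0.230% (0.00582 to 1.27) and 1.81% (1.37 to 2.36). A feeder cell without tdTomato can enter only the KO class by the line rule, so the Col1a2-positive shares do not compare the lines. In 48h-EpiLCs each was 0 of 368 WT-assigned cells, where 3 counts of the total would be 0.815% and the exact interval reaches 0.997%, and 2 of 2977 KO-assigned cells. Without both classes, 4 of 9 genes were lower and 0 higher in WT-assigned cells (11.5% and 13.6% of all measured genes), with Lama1, Lamc1, Nid1 and Sparc still past 1.5-fold, and Col4a1 was 1.27-fold lower (0.821 to 1.98). In KO-assigned cells 4 of 9 were then lower (9.77% of all measured genes) and 1 higher (9.04%): Col4a1 was 1.94-fold lower (1.68 to 2.25), Sparc 1.33-fold lower (1.29 to 1.38) and no longer past the threshold, and Lamb1 1.75-fold higher (1.62 to 1.88). Lama1 and Nid1 kept decreases of 10.3-fold (7.74 to 14.1) and 5.29-fold (4.68 to 5.999) there. The median log2 ratio was then -0.31 in the WT and -0.41 in the KO line. Leaving out the rare cells does not leave out their free RNA in other droplets of the ESC library. Its part in the decreases that remained, that of Lama1 among them, was not tested.

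Of the other basement membrane components, 7 were measured in the WT and 11 in the KO stage comparison. The counts given here are to be read against 13.3% of all measured genes higher and 11.4% lower in the WT line. In the KO line these shares were 8.55% and 10.1%. In the WT line 1 was higher, Pxdn at 10.3 against 4.22 CPM, and 0 were lower. In the KO line 0 were higher and 2 were lower, among them the fibulin Fbln2 at 2.45 against 26.1 CPM. Fbln2 stood at 795 CPM in Col1a2-positive cells and at 7.09 CPM in other ESCs. Of biosynthesis genes 3 of 14 were higher and 2 lower in the WT line, and 1 higher and 2 lower in the KO line, with the lysyl oxidase Loxl2 higher in both (109 against 39.0 CPM, and 146 against 78.1 CPM) and the lysyl hydroxylase Plod1 lower in both (4.82 against 8.77 CPM, and 8.35 against 17.3 CPM). Of proteases and inhibitors, 1 of 5 was higher and 3 lower in the WT line and 0 of 7 higher and 5 lower in the KO line, led by the serine protease Htra1 in the WT (4.02 against 16.6 CPM) and the inhibitor Timp2 in the KO line (3.41 against 27.9 CPM). Timp2, like Fbln2, was high in Col1a2-positive cells, as given below. Without both rare classes 4 of 7 were lower and 0 higher in the KO line, where 9.77% and 9.04% of all measured genes were. The summed level of the list in KO-assigned ESCs was then 149 CPM instead of 229 CPM. Of the receptors, 2 of 11 were higher and 2 lower in the WT line and 0 of 12 higher and 1 lower in the KO line, with the fibronectin receptor subunit Itga5 lower in both (8.68 against 15.4 CPM, and 10.5 against 30.4 CPM).

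The line comparison asked which of the genes differed between KO-assigned and WT-assigned cells of a stage. In S/LIF ESCs 0 of the 10 genes were called higher and 0 lower, where 12.4% of 9277 measured genes were higher and 4.98% lower. In 48h-EpiLCs 0 of 7 were higher and 0 lower, against 8.07% and 4.30% of 9385 genes. The median log2 ratios were -0.10 in ESCs and -0.06 in 48h-EpiLCs, against 0.12 and 0.07 over all measured genes. With TMM scaling the median of all genes in ESCs was 0.02 and the higher share of all calls 55.4% instead of 71.4%, and the 2 counts of the 10 genes stayed at 0.

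**Figure D5:**
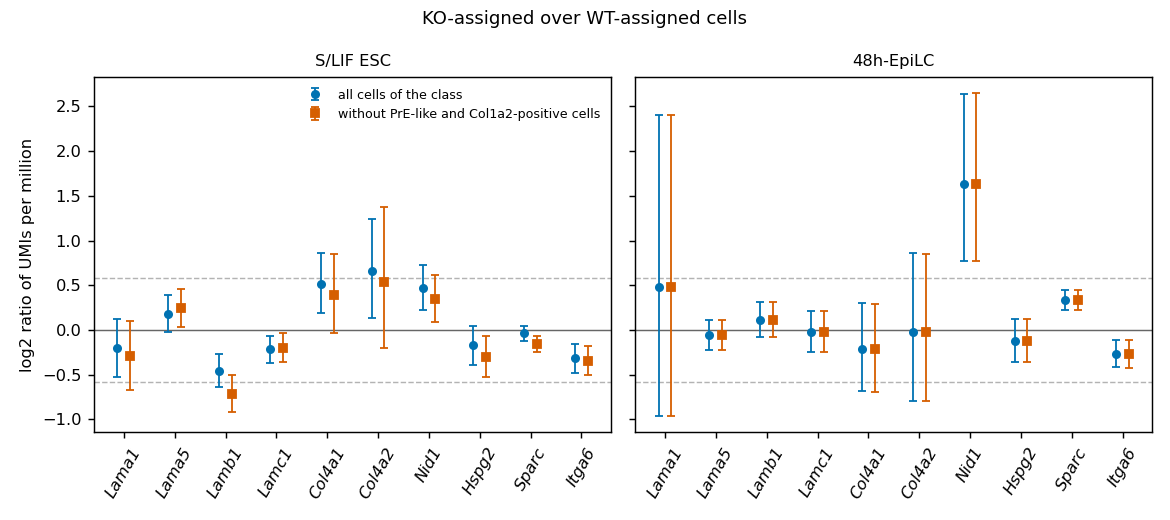
Log2 ratio of KO-assigned over WT-assigned cells for the 10 genes in S/LIF ESCs (left) and 48h-EpiLCs (right), for all cells of the class (circles) and without primitive endoderm-like and Col1a2-positive cells (squares); bars are exact 95% intervals of the counts and dashed lines mark 1.5-fold. Most genes lie within 1.5-fold, and Nid1 in 48h-EpiLCs, at 1.63, rests on 11 UMIs in WT-assigned cells.

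Among the laminin chains in ESCs, Lamb1 was lower in KO-assigned cells, 33.4 against 45.8 CPM with a log2 ratio of -0.46 (-0.64 to -0.27), and so was Lamc1, 56.7 against 66.0 CPM with -0.22 (-0.37 to -0.06). The intervals of Lama1 (-0.53 to 0.13) and Lama5 (-0.02 to 0.39) included 0. Without the primitive endoderm-like and Col1a2-positive cells that of Lama1 still did (-0.67 to 0.10), while Lama5, at 0.24 (0.03 to 0.46), excluded 0. In 48h-EpiLCs the intervals of all 4 chains included 0, with log2 ratios of -0.06 (-0.23 to 0.11) for Lama5, 0.12 (-0.08 to 0.31) for Lamb1 and -0.02 (-0.25 to 0.21) for Lamc1. The difference in Lamb1 was larger without the primitive endoderm-like and Col1a2-positive cells: 24.2 CPM (22.7 to 25.8) in KO-assigned against 39.8 CPM (34.9 to 45.2) in WT-assigned ESCs, 1.64-fold lower (1.42 to 1.89). It was then the only 1 of 9 measured genes called lower, with 0 higher, where 5.36% of all measured genes were lower and 12.2% higher.

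The collagen IV chains and Nid1 were higher in KO-assigned ESCs by less than the threshold of log2 (CPM + 1). Col4a1 stood at 19.2 against 13.5 CPM (log2 ratio 0.51, 0.19 to 0.86), Col4a2 at 7.98 against 5.04 CPM (0.66, 0.13 to 1.24) and Nid1 at 32.8 against 23.7 CPM (0.47, 0.22 to 0.72). The KO-assigned class held more Col1a2-positive cells than the WT-assigned class (54 of 2978 against 1 of 435). The summed level of the 10 feeder fibroblast markers was 338.4 against 269.2 CPM. By the line rule a cell without tdTomato can enter only the KO class, and the methods name no tdTomato in the ICR feeder fibroblasts. Col1a2-positive cells held the Y-linked genes at 74.9 CPM, against 77.2 CPM in other ESCs. These counts therefore do not compare the lines, and the source of the 54 cells was not tested. Of those markers 3 were measured and 1 was called higher, Col1a1 at 11.5 against 2.76 CPM, and Col6a1 and Lum were at 0 in WT-assigned ESCs. The 12 primitive endoderm markers summed to 50.3 against 36.7 CPM. Without both rare classes Col4a1 stood at 10.7 CPM (9.76 to 11.8) against 8.19 CPM (6.06 to 10.8), a log2 ratio of 0.39 (-0.04 to 0.85), and Col4a2 at 0.54 (-0.21 to 1.38), so that both intervals included 0. That of Nid1, 0.35 (0.09 to 0.62), did not. On log2 of CPM + 1 the ratio of Col4a1 was 0.48, and went to 0.72 without the top 10% of doublet scores, past the threshold, and to -0.37 with lines assigned from 4 Y-linked or 2 tdTomato UMIs, which left 33 WT-assigned ESCs.

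In 48h-EpiLCs Nid1 stood at 5.46 CPM (4.89 to 6.09) in KO-assigned and 1.77 CPM (0.883 to 3.16) in WT-assigned cells, which is 324 against 11 UMIs and 3.09-fold (1.70 to 6.25), but its mean was under the 5 CPM needed for a call. After thinning, it was seen in 2.22% and 1.36% of cells, and the log2 ratio of CPM + 1 went from 1.22 to 0.58. Sparc was higher in KO-assigned 48h-EpiLCs, 134 against 106 CPM with a log2 ratio of 0.33 (0.22 to 0.45), and level in ESCs, with -0.04 (-0.12 to 0.05). Itga6 was lower in KO-assigned cells at both stages, with log2 ratios of -0.32 (-0.48 to -0.15) and -0.27 (-0.42 to -0.11). Hspg2 had intervals that included 0 at both stages, -0.17 (-0.39 to 0.05) and -0.12 (-0.36 to 0.12). Without the primitive endoderm-like and Col1a2-positive cells its value in ESCs was -0.30 (-0.53 to -0.07), which excluded 0.

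The other lists are given with their counts, to be read against the 12.4% of all measured genes called higher and 4.98% lower in KO-assigned ESCs. Of 11 measured basement membrane components 5 were higher and 0 lower in KO-assigned ESCs, among them Fbln2 (26.1 against 5.04 CPM), Tinagl1 (8.55 against 1.46 CPM) and the laminin chain Lama3 (15.1 against 5.69 CPM). Of 7 proteases and inhibitors 6 were higher and 1 lower, among them the inhibitors Timp2 (27.9 against 4.06 CPM) and Timp1 (101 against 44.8 CPM), which in Col1a2-positive cells stood at 673 and 1838 CPM. Of 14 biosynthesis genes 4 were higher, among them Serpinh1 (36.0 against 18.8 CPM), and 1 lower, Plod2 (24.0 against 51.8 CPM). Of 12 receptors 3 were higher, with Itga3 at 31.5 against 14.6 CPM, and 0 lower. Without the primitive endoderm-like and Col1a2-positive cells, 2 of 10 components were higher and 0 lower, 5 of 6 proteases and inhibitors higher and 0 lower, with Timp2 at 11.5 against 3.17 CPM, 4 of 14 biosynthesis genes higher and 1 lower, and 3 of 12 receptors higher and 0 lower. In 48h-EpiLCs 1 of 8 components was higher, Lama3 at 11.7 against 3.70 CPM, as were 1 of 11 receptors (Sdc4, 71.7 against 33.6 CPM) and 2 of 4 proteases and inhibitors, and none of these lists had a gene called lower. Of 14 biosynthesis genes 2 were higher and 2 lower there. Over all measured genes of the 48h-EpiLC comparison 8.07% were higher and 4.3% lower. For the ESC counts without the rare classes these shares were 12.2% and 5.36%.

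Among primitive endoderm-like ESCs, 9 were WT-assigned and 99 KO-assigned. Lama1 stood at 171 CPM (110 to 255) in the former and 118 CPM (102 to 137) in the latter, Lamb1 at 307 CPM (222 to 413) and 200 CPM (179 to 224), and Col4a1 at 242 CPM (168 to 339) and 164 CPM (144 to 186). With 9 cells the WT values rest on 24, 43 and 34 UMIs, so these values are a description of few cells.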

How the data were processed

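The authors deposited raw UMI counts per gene and barcode of 2 droplet 3′ libraries, made by them with Cell Ranger 3.0.2 on mm10 with the tdTomato coding sequence added. Whether counting used the strand was not given in the sources used here. From these counts, UMIs were summed over the cells of a class and divided by the class total (CPM). Exact 95% intervals (Poisson for levels, binomial for ratios, Clopper-Pearson for shares) cover counting error only. Genes of at least 5 CPM on average were called past 1.5-fold of CPM + 1. The tdTomato-positive cells with Y-linked UMIs (82 and 84) entered neither line. Scrublet marked 0 and 1 cells by its automatic threshold, so it had not worked, and doublets were kept. Thinning was to 5000 UMIs. Of the features, 99.6% matched GENCODE M21. Python 3.11.15, scipy 1.17.1, scanpy 1.11.5 and edgeR 4.0.16 (TMM factors alone, as an alternative) were used. The calls were also run on simulated Poisson counts of known folds. These hold the counting error that the intervals assume and no spread between cells or libraries, so they check the computation alone.

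The 10 genes, the lists and the alternatives were chosen with earlier results of these data known. From each list up to 4 genes were named by the size of their log2 ratio, and the genes most like the set by r. Markers named to check a label or to show RNA outside its source, chains at 0, and levels in Col1a2-positive cells were picked after their values were seen. Some genes of the lists that enter the counts are not reported here by name.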

Additional observations from a re-analysis of the deposited data

Results flagged for a closer look

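Without the primitive endoderm-like and Col1a2-positive cells, the line difference of Sparc had opposite signs at the 2 stages, with intervals that excluded 0 on both sides. KO-assigned over WT-assigned cells, its log2 ratio was -0.16 (-0.24 to -0.07) in S/LIF ESCs, 178 against 198 CPM, and 0.33 (0.22 to 0.45) in 48h-EpiLCs, 134 against 106 CPM. The difference between the stages was not tested, since each stage is 1 library, and both values lie within 1.5-fold.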

How the results depend on the processing

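Of the values that summarise a comparison, 147 stayed close to the reported one under the alternatives and 12 moved. In the stage comparison 1 gene was higher in WT-assigned cells with the tighter line rule (4 Y-linked or 2 tdTomato UMIs), Lama5, and 1 in KO-assigned cells without the rare classes, Lamb1. In KO-assigned over WT-assigned ESCs, 2 genes were higher with each cell weighing the same and 2 without the top doublet scores (Col4a1 and Col4a2), 1 after thinning (Col4a1) and 1 with a pseudocount of 0.1 CPM (Col4a2). There 1 was lower without the rare classes (Lamb1) and 2 with the tighter rule (Lamb1 and Hspg2). In 48h-EpiLCs 1 was higher without a minimum CPM (Nid1), and with the tighter rule the median was -0.33, with 1 higher (Lamb1) and 1 lower (Lamc1). The cause was not tested, but the tighter rule left 284 and 149 UMIs of the 10 genes in WT-assigned ESCs and 48h-EpiLCs. Of 530 values of single genes, 26 crossed 1.5-fold and 12 changed sign, and 39 of the 60 results did neither in any alternative. In the primitive endoderm-like comparison none of the 10 genes crossed, and Lama5 went from 0.15 to -0.06 with cells of at least 6 UMIs. Depth limits what can be read of Lama1 in 48h-EpiLCs and of Col4a2 outside the rare classes, and 1 library per stage limits every comparison. No paired analysis was possible because each stage was 1 library.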

Other observations

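Naive pluripotency genes lay in both directions in primitive endoderm-like ESCs. Of 9 naive pluripotency genes, 2 were past 1.5-fold higher than in other ESCs, with Tbx3 at 193 against 38.2 CPM and Klf5 at 447 against 192 CPM, and 3 lower, with Nanog, a factor of naive pluripotency that opposes primitive endoderm, at 24.9 against 70.7 CPM and Zfp42 at 257 against 501 CPM. Over all measured genes of that comparison, 7.45% were higher and 4.76% lower. Between the stages, 8 of the 9 naive genes were lower in 48h-EpiLCs in each line, with Klf4 at 8.52 against 155 CPM in WT-assigned cells. The shares of all measured genes between the stages were 13.3% higher and 11.4% lower in the WT line. In the KO line they were 8.55% and 10.1%. Of 6 formative genes 4 were higher in WT-assigned and 6 in KO-assigned 48h-EpiLCs, and the growth factor Fgf5 stood at 53.4 against 2.76 CPM in WT-assigned cells. The integrin subunit Itgb1, which pairs with the product of Itga6, stood at 76.5 CPM in both primitive endoderm-like and other ESCs.

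Within 48h-EpiLCs, cells with more UMIs of the 10 genes also held more of Cald1 and Tpm1, which bind actin filaments, and of the membrane-linked Ahnak, with r of 0.196, 0.153 and 0.160 over 9396 cells of 1 library. These are descriptions of sparse counts and carry no test.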
